A study of Mus musculus with 10 samples.

Results

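Gluconeogenesis, the synthesis of glucose from lactate, amino acids and glycerol, was followed through 6 genes of the jejunum: Pcx, Pck1, Fbp1, Fbp2, Slc37a4 and G6pc. They were taken by gene symbol as the enzymes and transporter of the steps that glycolysis cannot run backwards. These are 6 of the 45707 rows of the deposited table, and all 6 passed the filter on low values that left 14301 genes to be tested. RNA sequencing was done on the jejunum of male littermates, 5 of the Vil-Cre genotype and 5 Vil-Cre:NDI1, with 1 library per mouse. The comparison asked what expression of NDI1, the single-subunit NADH dehydrogenase of yeast, did to the intestinal transcriptome in the absence of any drug.

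Both groups carried the Vil-Cre transgene, in which the Villin promoter drives Cre recombinase in intestinal epithelial cells. The Vil-Cre:NDI1 mice in addition carried NDI1 behind a loxP-flanked stop sequence in the ROSA26 locus. There was no group without Cre. All 10 mice were fasted for 16 to 18 h, were given water by gavage as the vehicle, and were killed 1 h later. They were 8 to 12 weeks old. The jejunum was flushed and used whole, so the libraries hold muscle, stroma, blood cells and attached fat beside epithelium. In such bulk tissue fewer cells of a type and less RNA per cell cannot be told apart.

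In a fasting animal the liver and kidney release most of the new glucose, and the small intestine also expresses the enzymes of the pathway. Pyruvate is carboxylated in mitochondria to oxaloacetate, which is converted to phosphoenolpyruvate. After the reversible steps of glycolysis run in reverse, fructose-1,6-bisphosphate is dephosphorylated, and glucose-6-phosphate is carried into the endoplasmic reticulum and hydrolysed there to free glucose. Transcription of Pck1 and G6pc is induced in fasting by glucagon and glucocorticoids and is repressed by insulin in the liver.

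Each library held 10145705 to 12371530 reads on genes. NDI1 had 0, 0, 1, 0 and 0 reads in the 5 Vil-Cre libraries and 1002 to 2659 in the 5 Vil-Cre:NDI1 libraries, so the labels matched the transgene in every mouse. All 10 enterocyte markers were expressed, with summed normalized counts of 302620 to 601160 per mouse, led by Apoa4 and Anpep. Ileal markers were not at the same level in every mouse. The bile acid carriers Fabp6 and Slc10a2, which belong to the distal small intestine, ranged from 0 to 1477 and from 2.94 to 561 normalized counts, and their place beside the gluconeogenic genes is given further on.

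Promoter sequence is shown for the 4 genes that have a single start site in RefSeq, because the regulatory letters lie in different places in genes that were later seen to vary together. Each sequence is the 250 bases before the RefSeq start on GRCm38.p6, 5′ to 3′ on the strand of the gene. Capitals mark matches, on either strand, to 5 motifs. The first was TGACG, the half-site of the cAMP response element through which glucagon acts. Another was GTTAAT, a half-site of the hepatocyte nuclear factor HNF1. For HNF4, a nuclear receptor of liver and intestine, the core CAAAGTC was searched. For GATA factors, which include the jejunal factor GATA4, the core was AGATAA. The last was TATAAA, the TATA box that places the start of transcription. Pck1 lies at chr2:173152823-173153072 on the plus strand, Fbp1 at chr13:62888283-62888532 on the minus strand, Fbp2 at chr13:62858401-62858650 on the minus strand, and G6pc at chr11:101367466-101367715 on the plus strand.
Pck1: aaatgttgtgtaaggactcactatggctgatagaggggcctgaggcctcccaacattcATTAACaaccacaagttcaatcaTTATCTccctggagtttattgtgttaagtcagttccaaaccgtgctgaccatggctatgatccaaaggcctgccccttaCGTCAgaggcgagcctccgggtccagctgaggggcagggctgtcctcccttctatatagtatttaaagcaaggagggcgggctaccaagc
Fbp1: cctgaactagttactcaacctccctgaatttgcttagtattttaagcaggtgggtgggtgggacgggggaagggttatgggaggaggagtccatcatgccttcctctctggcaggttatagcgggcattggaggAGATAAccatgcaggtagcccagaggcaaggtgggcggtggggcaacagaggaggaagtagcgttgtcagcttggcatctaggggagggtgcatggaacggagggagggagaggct
Fbp2: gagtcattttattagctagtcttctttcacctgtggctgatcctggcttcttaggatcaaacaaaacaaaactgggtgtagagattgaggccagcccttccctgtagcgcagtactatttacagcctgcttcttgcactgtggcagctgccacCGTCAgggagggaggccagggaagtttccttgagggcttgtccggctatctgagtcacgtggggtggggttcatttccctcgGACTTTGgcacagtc
G6pc: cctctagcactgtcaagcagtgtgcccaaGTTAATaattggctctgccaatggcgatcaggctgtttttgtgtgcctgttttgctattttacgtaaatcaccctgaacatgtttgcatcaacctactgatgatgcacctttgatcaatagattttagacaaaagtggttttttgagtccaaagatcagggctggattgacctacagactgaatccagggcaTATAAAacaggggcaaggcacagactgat
In Pck1 the capitals are, in order, an HNF1 half-site at -192, a GATA core at -169 and a cAMP response element half-site at -90, all on the minus strand and counted to the first base from the start. Fbp1 held a GATA core at -116, and Fbp2 a cAMP response element half-site at -97 and an HNF4 core at -15, both on the minus strand. G6pc held an HNF1 half-site at -221 and a TATA box at -29. The GENCODE starts of Pck1, Fbp2 and G6pc lie within these windows, upstream of the RefSeq starts, so that the HNF4 core of Fbp2 and the TATA box of G6pc are downstream of the GENCODE starts. Of 32851 mouse promoters searched over 250 bases before and 50 bases after the start, 20.8% held the cAMP response element half-site, 7.1% the HNF1 half-site, 4.44% the HNF4 core, 11.2% the GATA core and 13.6% the TATA box. The full palindrome TGACGTCA, which contains that half-site, was in 1.79% of promoters, and the FOXO motif TGTTTAC in 3.65%. Neither of these last motifs was found in a promoter of the 6 genes. Slc37a4, with 3 RefSeq starts, held the cAMP response element half-site at 2 places and a TATA box at 1. No match was found at the 2 starts of Pcx. Such matches are descriptions of letters, common in promoters at large, and say nothing of whether a factor was bound.

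The levels of the 6 genes spanned a wide range. Normalized counts were divided by the merged exon length of each gene in kilobases so that genes could be compared. On this per-kilobase scale Pck1 had a mean of 6492 and ranked 89 of 26067 genes with a read and a length. Fbp2 followed with 2288, then G6pc with 761, Slc37a4 with 488, Fbp1 with 298 and Pcx with 129. Pck1 exceeded Fbp2 in 10 of 10 mice by a median of 2.83-fold. Fbp2 exceeded G6pc in 10 of 10 by a median of 3.56-fold. The step from Slc37a4 to Fbp1 was 1.67-fold and that from Fbp1 to Pcx 1.88-fold, again in 10 of 10 mice, although the last ratio fell to 1.06 in 1 mouse. For these 4 steps the two-sided exact sign-flip permutation test gave p = 0.00195, the smallest that 10 mice allow. G6pc stood above Slc37a4 in 9 of 10 mice, with ratios of 0.669 to 2.01 and an exact permutation p of 0.0156, so the order of these neighbours was the least firm.

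**Figure D1:**
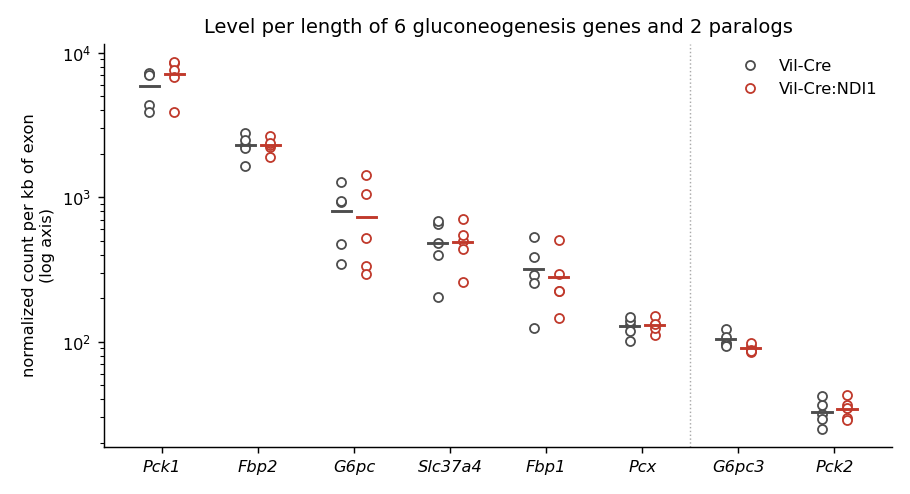
Normalized count per kilobase of exon (log axis) for the 6 genes and the paralogs G6pc3 and Pck2, with 1 point per mouse and a bar at the mean of each genotype. Pck1 lies highest, with a mean of 6492, and Pcx lowest of the 6, with 129, and the genotypes overlap for every gene.

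Pyruvate carboxylase, encoded by Pcx (ENSMUSG00000024892, chr19:4510472-4621752, plus strand, GRCm38), opens the pathway in mitochondria and also refills the citric acid cycle. Its normalized counts were 622, 665, 701, 481 and 561 in Vil-Cre mice 1 to 5 and 529, 633, 717, 591 and 629 in Vil-Cre:NDI1 mice 1 to 5. The groups overlapped throughout, with means of 606 ± 87.2 and 620 ± 68.3 (SD, n = 5 each). The log2 fold change, Vil-Cre:NDI1 over Vil-Cre on log2(value + 1), was 0.04 with an SE of 0.12, with a 95% interval from -0.22 to 0.29. Lrfn4 overlaps Pcx on the other strand, but their exons do not overlap.

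Pck1 (ENSMUSG00000027513, chr2:173153048-173159273, plus strand) encodes the cytosolic phosphoenolpyruvate carboxykinase. Vil-Cre mice 1 to 5 had 24434, 14889, 24827, 24002 and 13233 normalized counts, and Vil-Cre:NDI1 mice 1 to 5 had 29158, 29444, 26045, 13282 and 23301. Vil-Cre mice 2 and 5 and Vil-Cre:NDI1 mouse 4 lay low, no mouse lay between 14889 and 23301, and 3 Vil-Cre:NDI1 mice were above every Vil-Cre mouse. The means were 20277 ± 5712 and 24246 ± 6623 (SD, n = 5 each), and the log2 fold change was 0.25 with an SE of 0.25 and a 95% interval from -0.30 to 0.81.

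The mitochondrial isozyme, encoded by Pck2, was far lower, at 256 ± 51.6 and 269 ± 44.2 normalized counts (SD, n = 5 each). Pck1 made up 98.9% to 99.7% of the sum of both genes per kilobase and exceeded Pck2 by 91.1- to 292-fold. The fold depends on the length used. Merged exons span 3429 bases in Pck1 and 7806 in Pck2, and the longest transcripts 2728 and 4625. Its share was 99.4% ± 0.318 in Vil-Cre and 99.5% ± 0.304 in Vil-Cre:NDI1 mice (SD, n = 5 each), with a two-sided exact permutation p of 0.825. The jejunum thus held the cytosolic form in large excess in every mouse, whichever the genotype.

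Fructose-1,6-bisphosphatase has a form named for the liver and one named for muscle, encoded by Fbp1 (ENSMUSG00000069805, chr13:62864753-62888282, minus strand) and Fbp2 (ENSMUSG00000021456, chr13:62836877-62858422, minus strand). Fbp1 had 493, 433, 658, 899 and 213 normalized counts in Vil-Cre mice and 867, 384, 497, 248 and 379 in Vil-Cre:NDI1 mice, each in the order 1 to 5. The highest and the lowest values over all mice were both of Vil-Cre mice, and the groups overlapped, with means of 539 ± 257 and 475 ± 236 (SD, n = 5 each). The log2 fold change was -0.16 with an SE of 0.39.

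Fbp2 had 3372, 3217, 4087, 3678 and 2424 normalized counts in Vil-Cre mice and 3896, 3276, 3390, 2787 and 3480 in Vil-Cre:NDI1 mice, in the same order. The means of 3356 ± 618 and 3366 ± 399 (SD, n = 5 each) were close and the groups overlapped. The log2 fold change was 0.02 with a 95% interval from -0.28 to 0.32, and Fbp2 was among the genes whose interval was narrow.

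Although Fbp1 is the isozyme associated with gluconeogenesis in liver, Fbp2 was the major form here. Per kilobase, Fbp2 exceeded Fbp1 in every mouse by 4.74- to 13.2-fold, with a median of 8.26-fold. The share of Fbp1 in the sum was 11.7% ± 3.76 in Vil-Cre and 10.4% ± 3.49 in Vil-Cre:NDI1 mice (SD, n = 5 each, two-sided exact permutation p = 0.611). It was lowest, at 7.04% and 7.13%, in Vil-Cre mouse 5 and Vil-Cre:NDI1 mouse 4, and highest, at 17.4% and 16.1%, in Vil-Cre mouse 4 and Vil-Cre:NDI1 mouse 1. The longest run of identical bases between annotated transcripts of Fbp1 and Fbp2 was 23 bases. The 6 skeletal muscle markers summed to 116 to 196 normalized counts in Vil-Cre and to at most 237 in Vil-Cre:NDI1 mice. They were led by Ckm, with a mean of 77.7, and Mylpf, with a mean of 42.8 and up to 150 in 1 mouse, 3 of the 6 had a mean of at least 10, and Myh4 was at 0 in all 10 libraries. Their part in the level of Fbp2 and the splitting of reads between the pair were not tested.

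Slc37a4 (ENSMUSG00000032114, chr9:44396852-44402968, plus strand) encodes the transporter that moves glucose-6-phosphate into the endoplasmic reticulum. Its normalized counts were 1367, 1136, 1867, 1964 and 579 in Vil-Cre mice 1 to 5 and 2028, 1427, 1573, 738 and 1257 in Vil-Cre:NDI1 mice 1 to 5. Vil-Cre mouse 5 and Vil-Cre:NDI1 mouse 4 were the lowest and the groups overlapped, with means of 1383 ± 566 and 1405 ± 470 (SD, n = 5 each). The log2 fold change was 0.07 with an SE of 0.34.

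G6pc (ENSMUSG00000078650, chr11:101367561-101377903, plus strand) encodes the catalytic subunit of glucose-6-phosphatase, the last enzyme before free glucose. The 5 Vil-Cre mice had 2252, 1153, 2286, 3099 and 837 normalized counts, and the 5 Vil-Cre:NDI1 mice 3443, 1251, 2542, 805 and 710. It spread more than any other of the 6 genes, 4.85-fold from the lowest to the highest mouse, and no mouse lay between 1251 and 2252. Each genotype contributed mice to both sides of that gap, 3 of 5 Vil-Cre and 2 of 5 Vil-Cre:NDI1 mice to the upper side. The means were 1926 ± 921 and 1750 ± 1196 (SD, n = 5 each), and the log2 fold change of -0.26 had an SE of 0.48 and a 95% interval from -1.31 to 0.79.

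Among the paralogs, the broadly expressed G6pc3 was the steadier gene, with 231 ± 27.0 and 201 ± 12.6 normalized counts (SD, n = 5 each), a log2 fold change of -0.19 with an SE of 0.11 and an exact permutation p of 0.0556. G6pc2, known from pancreatic islets, had no read in any library, and the floor of 3 reads corresponded to 2.73 to 3.52 normalized counts per library. G6pc made up 86.3% ± 6.78 of the sum with G6pc3 per kilobase in Vil-Cre and 85.4% ± 7.42 in Vil-Cre:NDI1 mice (SD, n = 5 each, exact permutation p = 0.857).

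**Figure D2:**
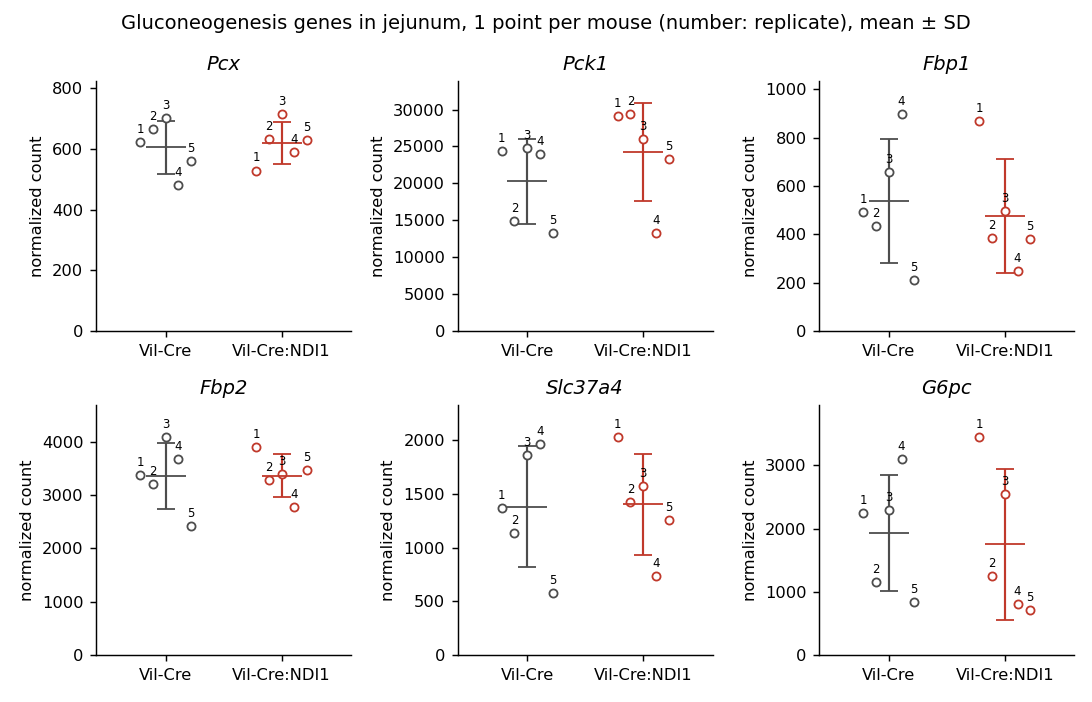
Normalized counts of the 6 genes by genotype, with 1 numbered point per mouse and the mean ± SD. Vil-Cre mouse 5 and Vil-Cre:NDI1 mouse 4 are low for Pck1, Fbp1, Fbp2, Slc37a4 and, with Vil-Cre:NDI1 mouse 5, G6pc, and in no panel do the genotypes separate.

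None of the 6 genes passed the test between genotypes. In limma, adjusted over 14301 genes, 0 of 6 passed 0.05, and their adjusted p-values were 0.998 in each case. The background was as low, since 0.00699% of all genes tested passed, which was 1 gene, NDI1 itself. Unadjusted p-values under 0.05 were reached by 0 of 6 genes and by 4.24% of all genes, and the groups failed to overlap for 0 of 6 and for 0.699%. With DESeq2 on recovered reads, 0 of 6 and 0.183% of 16976 genes passed. Two-sided exact permutation p-values of the single genes were 0.286 for Pck1, 0.675 for Fbp1, 0.802 for Pcx, 0.825 for G6pc, 0.968 for Slc37a4 and 0.992 for Fbp2, with 0.00794 the smallest possible. The median log2 fold change of the 6 was 0.03, beside 0.01 over all genes.

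The precision differed between the genes. For Pcx and Fbp2 the 95% interval of the fold change ran from 0.859 to 1.23 and from 0.822 to 1.25. For Pck1 it ran from 0.81 to 1.76, for Slc37a4 from 0.628 to 1.76, for Fbp1 from 0.497 to 1.61 and for G6pc from 0.403 to 1.73. These intervals give the range of differences that the 5 mice per genotype left compatible with each estimate.

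**Figure D3:**
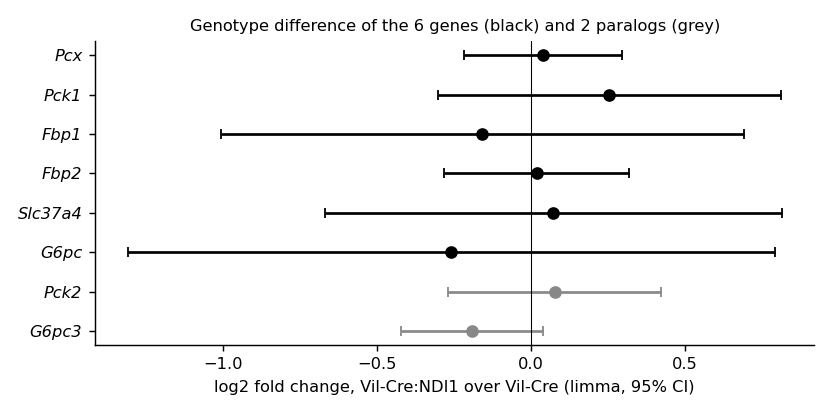
Log2 fold change of Vil-Cre:NDI1 over Vil-Cre with its 95% interval from limma, for the 6 genes in black and the paralogs Pck2 and G6pc3 in grey. Every interval includes 0, and the widest is that of G6pc, from -1.31 to 0.79.

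The spread between mice of the same genotype was the larger feature of the data. As an SD on the log2 scale within genotypes it was 0.90 for G6pc, 0.72 for Fbp1, 0.63 for Slc37a4, 0.46 for Pck1, 0.24 for Fbp2 and 0.19 for Pcx. Genes within 0.5 of the same log2 mean level had a median SD of 0.17 to 0.23 beside these 6. Of such genes, 99.0% spread less than G6pc, 97.8% less than Fbp1, 96.9% less than Slc37a4, 81.0% less than Pck1 and 70.3% less than Fbp2. Pcx stood in the middle, with 50.8% spreading less.

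The same mice were high or low for several genes at once. All 6 genes lay below their genotype mean in Vil-Cre mouse 5, down to -1.19 for Fbp1 on the log2 scale, and in Vil-Cre:NDI1 mouse 4, down to -0.85 for Slc37a4. In Vil-Cre mice 1 and 3 and Vil-Cre:NDI1 mouse 3 all 6 lay above it. In Vil-Cre mouse 4 and Vil-Cre:NDI1 mouse 1, 5 of 6 lay above, up to 0.89 for Fbp1 and 1.25 for G6pc, and Pcx alone lay below.

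**Figure D4:**
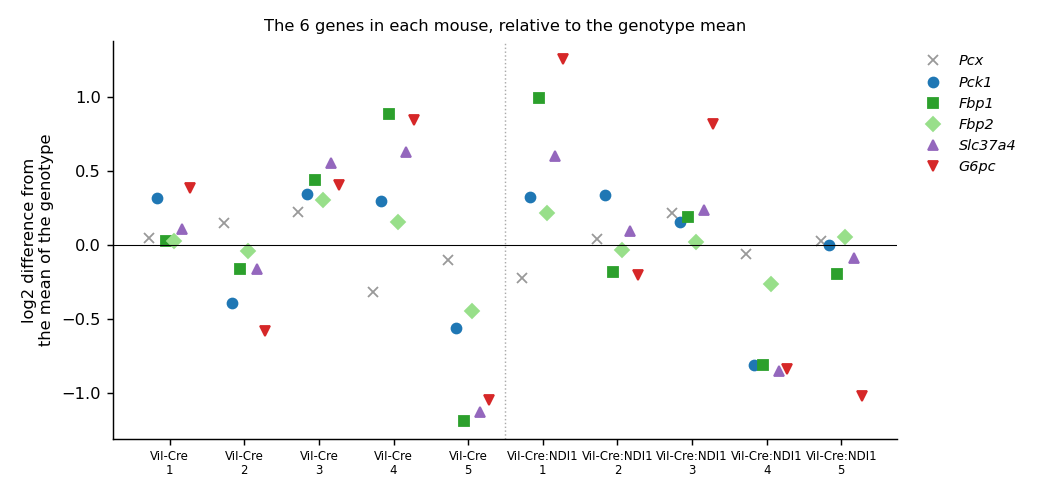
Log2 difference of each of the 6 genes from the mean of its genotype, by mouse, with 1 symbol per gene. Vil-Cre mouse 5 and Vil-Cre:NDI1 mouse 4 have all 6 symbols below 0, and Pcx (grey crosses) keeps within -0.32 and 0.22.

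After the genotype mean was removed, 10 of 15 pairs of genes were correlated across the 10 mice in a permutation test adjusted over the 15 pairs. These were the 10 pairs among Pck1, Fbp1, Fbp2, Slc37a4 and G6pc, all positive. Their Pearson r was 0.72 to 0.96, with adjusted permutation p-values of 0.00015 to 0.0226, and Spearman's rho was 0.65 to 0.96, with 7 of the 10 past the threshold. The closest pair was Fbp1 and Slc37a4, with r = 0.96 (permutation p = 1e-05, the smallest that 100000 permutations give), rho = 0.95 (permutation p = 0.00011) and r = 0.95 without the 2 mice farthest from the median.

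Without those 2 mice, which were Vil-Cre 5 and either Vil-Cre:NDI1 4 or Vil-Cre:NDI1 1, the 10 pairs had r of 0.50 to 0.95, and the lowest was Pck1 with Fbp1. The values of most of these genes left a gap above the lowest mice, with Vil-Cre mouse 5 and Vil-Cre:NDI1 mouse 4 below it, so r depends in part on which side of such a gap a mouse lay. For G6pc 5 mice lay on each side, too few for a test within either. For Fbp1 with Fbp2, Fbp1 with Slc37a4, and Fbp2 with Slc37a4, r was 0.91, 0.96 and 0.96 (permutation p of 0.00048, 1e-05 and 0.0001), and 0.84, 0.95 and 0.84 without the 2 farthest mice of each pair.

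Pcx did not follow the other 5 genes in all mice, with r of -0.21 to 0.09 and adjusted permutation p-values of 0.756 to 0.974. That result rests on 2 mice. Without Vil-Cre mouse 4 and Vil-Cre:NDI1 mouse 1, the pairs with Pcx had r of 0.61 to 0.91. In these 2 mice the 5 smooth muscle markers were also lowest, at 10968 and 12703 normalized counts against 16223 to 23053 in the other 8, and the plasma and B cell markers highest, at 3568 and 4539 against 1347 to 2626. Across the 10 mice Pcx rose and fell with the summed adipocyte markers (r = 0.84, adjusted permutation p = 0.0276, rho = 0.85, r = 0.75 without Vil-Cre mice 4 and 5). That sum was led by Cidec and Fabp4, with means of 1447 and 443. With smooth muscle markers r was 0.79 (adjusted permutation p = 0.036, rho = 0.59), but 0.23 without Vil-Cre mouse 4 and Vil-Cre:NDI1 mouse 1. Their part in the level of Pcx was not tested.

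The relations of the genes with marker lists were computed after their values had been seen, as 60 relations of 6 genes with 10 lists, of which 11 passed the adjusted threshold with Pearson's r and 4 with Spearman's rho. Of these, 5 were with the ileum. The ileal sum was led by Slc51a and Guca2a, with means of 3174 and 3148 normalized counts. Fabp6 and Slc10a2 had means of 282 and 213 and were small parts of it. The summed ileal markers were 8531, 11860, 4485, 5011 and 11319 normalized counts in Vil-Cre mice 1 to 5 and 4340, 6266, 5569, 10665 and 10402 in Vil-Cre:NDI1 mice 1 to 5. Mice low in Slc37a4 and G6pc were thus high in ileal markers, in both genotypes, and the sums of the genotypes overlapped (exact permutation p = 0.714).

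With the ileal sum, r was -0.89 for G6pc, -0.84 for Slc37a4, -0.84 for Fbp1, -0.79 for Pck1 and -0.76 for Fbp2, and the adjusted permutation p-values were 0.0152 to 0.036. Spearman's rho was -0.77 to -0.85 for these 5 genes, but after adjustment it passed for Slc37a4 only, with an adjusted permutation p of 0.0453. For Pcx r was 0.13 and rho -0.01 (adjusted permutation p = 0.866). Without the 2 mice farthest from the median, r of the 5 genes was -0.60 to -0.90.

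**Figure D5:**
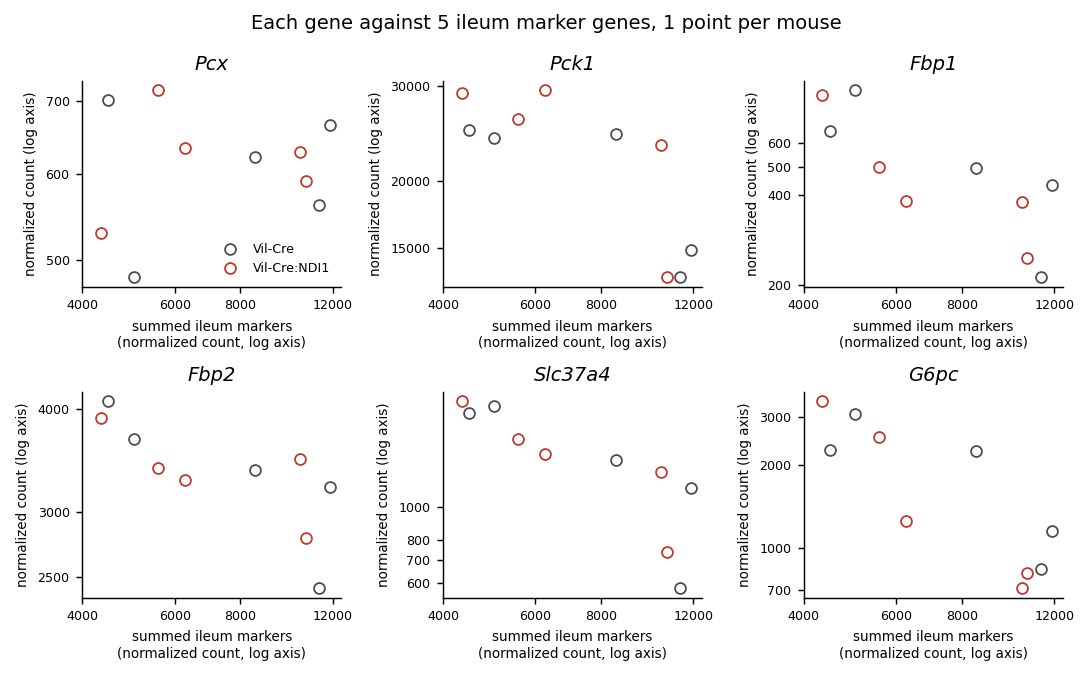
Normalized count of each of the 6 genes against the summed normalized counts of 5 ileal markers (both log axes), with 1 point per mouse. G6pc falls along the axis, with r = -0.89 after removal of the genotype mean, and Pcx does not, with r = 0.13.

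Markers of the proximal small intestine, taken as a sum, went the other way. Their sum correlated with Fbp2 (r = 0.93, adjusted permutation p = 0.0048, rho = 0.90), Slc37a4 (r = 0.86, adjusted permutation p = 0.0152, rho = 0.90) and Fbp1 (r = 0.79, adjusted permutation p = 0.044, rho = 0.83). For Pck1 and G6pc, r was 0.72 and 0.62 and the adjusted permutation p-values of 0.0715 and 0.177 missed the threshold. The list is led by Cyp2b10 and by Gata4, a transcription factor of duodenum and jejunum, with means of 1504 and 1183 normalized counts. Onecut2 followed with 274, and Slc40a1 and Pdx1 were small parts of the sum, with means of 47.8 and 3.37. The listed genes did not all move together. In Vil-Cre mice Slc40a1 was lowest in mice 3 and 4, where the sum was highest. Among Vil-Cre:NDI1 mice it was highest in mice 1 and 3, where the sum was highest too. When the ileal level was removed together with the genotype mean, 3 of the 10 pairs passed the threshold, and r of the 10 pairs was 0.13 to 0.90. Beyond this, the part of the sampled stretch of intestine in these levels was not tested.

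The other lists moved less with the 6 genes. Enterocyte markers correlated with Fbp2 (r = 0.84, adjusted permutation p = 0.0276, rho = 0.76), which fell to 0.47 without the 2 farthest mice. Hepatocyte markers, tested because the liver is rich in the same enzymes, summed to 128 to 2343 normalized counts in Vil-Cre and 135 to 416 in Vil-Cre:NDI1 mice (exact permutation p = 0.0476, unadjusted over the 10 lists). They were led by Alb and Cyp2e1, and Cyp7a1 had at most 0.934. The Vil-Cre mouse with the lowest hepatocyte sum, mouse 4 at 128, had the highest G6pc, Fbp1 and Slc37a4 of its genotype, and r of the hepatocyte sum with Pck1, Fbp1, Fbp2, Slc37a4 and G6pc was -0.30 to -0.63, and -0.14 to 0.19 without Vil-Cre mouse 4 and Vil-Cre:NDI1 mouse 1. For Pcx it was 0.67 (adjusted permutation p = 0.128, rho = 0.37), and -0.21 without these mice. The part of hepatocyte RNA in the levels of the 6 genes was not tested. No relation with the skeletal muscle, T cell, plasma and B cell or crypt lists passed the adjusted threshold.

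By the likeness of their course over the 10 mice, the nearest of 9100 other genes with a mean of at least 100 were different for each of the 6. For Fbp1 they included Ptgr1, with r of 0.97. For Slc37a4 they were 8430419L09Rik and Gata4, with r of 0.99 and 0.98, and for Fbp2 they were Sec16b and Guca2b, both with r of 0.99. Pck1 was nearest to Rmnd5a and Tmem37 (r = 0.96 for both), G6pc to Xylb and Kctd14 (r = 0.96 and 0.95), and Pcx to Aoc3 and Jam2 (r = 0.90 for both). The most opposite genes included Inf2 for Slc37a4, Elovl6 for Fbp2, Scd2 for Pck1, Fam3b for G6pc and Nipbl for Pcx, with r of -0.89 to -0.99. Counted with the 6 genes themselves among 9105 genes, Slc37a4 was the 5th nearest to Fbp1 and Fbp1 was the 47th nearest to G6pc. Slc37a4 was also the 18th nearest to Fbp2, and to Slc37a4 Fbp1 was the 23rd and Fbp2 the 33rd nearest. Other places among Pck1, Fbp1, Fbp2, Slc37a4 and G6pc ran from the 62nd, of Fbp2 to Fbp1, to the 923rd. Pck1 was the 492nd nearest to Fbp1, G6pc the 606th to Pck1 and the 923rd to Fbp2, so many other genes lay nearer. These are the extremes of many genes over 10 mice and are given with no test.

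Around the 6 genes, 83 genes of the surrounding pathway were read from textbook lists, and 76 passed the filter. In limma 0 of the 76 passed the adjusted threshold, 2 had an unadjusted p under 0.05, which is 2.63% against 4.24% of all genes, and 1 had groups that did not overlap, which is 1.32% against 0.699%. By sign 47 of 76 were higher in Vil-Cre:NDI1 mice, with a median log2 fold change of 0.06, beside 0.01 over all genes. Rescaling libraries to equal totals moved the median of all genes to -0.06. The count by sign was not taken under that scaling, nor over all genes.

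The gene without overlap was Hk1, a hexokinase, which phosphorylates glucose against the direction of glucose-6-phosphatase. It had 255 ± 76.1 normalized counts in Vil-Cre and 156 ± 25.1 in Vil-Cre:NDI1 mice (SD, n = 5 each), with ranges of 193 to 386 and 121 to 189. Its log2 fold change was -0.68 with an SE of 0.19, an exact permutation p of 0.00794 and a limma adjusted p of 0.998, so it did not pass the correction over all genes. The remaining gene was Nr4a1, an immediate early nuclear receptor, at 68.0 ± 49.3 and 24.4 ± 8.83 (SD, n = 5 each), with a log2 fold change of -1.17, an SE of 0.50, overlapping groups and a limma adjusted p of 0.998.

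By role, the median log2 fold change was 0.04 for 20 genes of carbon entry and 0.09 for 8 of glycerol entry. It was 0.13 for 9 of the reversible steps, 0.07 for 11 opposing glycolytic enzymes and -0.16 for 4 paralogs and relatives. For 20 regulators it was -0.03 and for 4 transporters of sugar uptake and exit 0.30, and 0 of each list passed. The most abundant genes of each list named here did not pass either. Ldha had a log2 fold change of 0.07 and Slc6a19, the main neutral amino acid transporter of the brush border, 0.17. For glycerol, glycerol kinase (Gyk) had 0.09 and Gpd1 0.26. For the reversible steps, Gapdh had 0.13. Pkm and Pklr, the pyruvate kinases, had 0.11 and 0.07. Slc37a1 and Slc37a3, relatives of Slc37a4, had -0.13 and -0.44. Hnf4a and Hnf4g, nuclear receptors of the enterocyte, had 0.10 and 0.14, and the glucose transporters Slc2a2 and Slc5a1 had 0.30 and 0.30.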

How the data were processed

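RNA of 10 jejuna, 5 Vil-Cre and 5 Vil-Cre:NDI1, was sequenced single-end. The authors ran the nf-core/rnaseq pipeline, in which reads were trimmed with trimGalore!, aligned with STAR to GRCm38 with NDI1 added and assigned to genes with Salmon, and DESeq2 size factors were applied. What the authors deposited is thus a signal (read counts divided by a size factor), not raw counts. The annotation release and the strand setting were not given in the sources used here. Groups and replicate numbers were taken from the labels. No column was left unused. The 6 genes and the textbook lists of pathway and marker genes were chosen with earlier results of these data known, and Gk is listed under its symbol Gyk.

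Gene positions and merged exon lengths came from GENCODE M21 (45143 of 45707 identifiers matched) and promoters from RefSeq. Values were transformed to log2(value + 1), and genes with at least 10 in at least 5 libraries were tested with limma 3.58.1 (R 4.3.3, trended variance prior), adjusted by Benjamini-Hochberg. Every value of a library was a whole multiple of its smallest (100%, tolerance 0.001), so reads could be recovered, with less certainty in Vil-Cre 3 and 4 where 1 read is worth about 1. These reads entered edgeR 4.0.16 and DESeq2 1.42.0 as alternatives, the latter also on the other 8 libraries. Libraries of a genotype differed beyond sampling noise (chi-square per gene of at least 13.2). Permutation tests over mice used all 252 splits, and correlations 100000 permutations (SciPy 1.17.1). Counting error is small at these depths, and the floor of 3 reads covers counting error only.

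On simulated reads of the same comparison in 14057 genes, limma recovered 19.4% of 1.5-fold, 59.7% of 2-fold and 84.8% of 4-fold changes, with 8 false calls among 117. DESeq2 with a local fit had 49 false calls among 180. The changed genes were drawn at random from those tested, whose median log2 SD within genotypes was 0.29. That SD was 0.90 for G6pc, 0.72 for Fbp1, 0.63 for Slc37a4 and 0.46 for Pck1, so the rates are not those of such variable genes. The named genes are the 6 members, 3 paralogs, the 2 most abundant genes of each list, pathway genes with an unadjusted p under 0.05 or no overlap, and for each member the 2 genes with the highest r and the 1 with the lowest. Some genes that the rule takes are not reported here. Marker genes named beyond these (Fabp6, Slc10a2, Onecut2, Slc40a1, Pdx1, Adipoq, Cfd, Cyp7a1 and Myh4) were chosen after their values were seen. Alternatives were other pseudocounts, filters, scalings and limma settings, the count tests, a replicate block and leaving out each mouse.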

Additional observations from a re-analysis of the deposited data

Results flagged for a closer look

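Of 22 groups of 5 values tested for an extreme sample, 1 held one, where chance gives about 1 in 20 groups, or 1.1 here. The share of Pck1 in the sum of Pck1 and Pck2 per kilobase was 98.914% in Vil-Cre:NDI1 mouse 4, against 99.542% to 99.659% in the other 4 mice of that genotype, a gap of 0.843 of the range. This mouse had the lowest Pck1 of its genotype, at 13282 normalized counts, and the highest ileal marker sum, at 10665. Vil-Cre mouse 5, low in Pck1 as well, had a share of 98.9%.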

How the results depend on the processing

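The number of the 6 genes called was 0 under all 27 alternatives. Over all genes, 1 was called with limma and with edgeR, 2 with a filter of at least 50 or with array weights, 31 and 22 with DESeq2 under a local and a parametric dispersion fit, and 1 to 3 when each mouse was left out. Alternatives chosen after seeing the data gave 268 with DESeq2 on the 8 libraries and 3 with the ileal level as a covariate. The cause was not tested. Small fold changes of the 6 genes changed sign. With libraries rescaled to equal totals, which moved the median of all genes to -0.06, Pcx had a log2 fold change of -0.0256 and Fbp2 -0.0454. Fbp2 had -0.0488 under quantile normalization and -0.00573 in edgeR. With the ileal covariate Fbp2 had -0.0188 and Slc37a4 -0.0351, and with a proximal covariate, also added later, they had -0.109 and -0.242, Pcx 0.0131, Pck1 0.0629, Fbp1 -0.487 and G6pc -0.581. On the 8 libraries Fbp1 had 0.32 and G6pc 0.31. When each mouse was left out, the range was -0.043 to 0.0926 for Pcx, 0.113 to 0.457 for Pck1, -0.455 to 0.0632 for Fbp1, -0.0947 to 0.0936 for Fbp2, -0.21 to 0.28 for Slc37a4 and -0.573 to -0.00414 for G6pc, and the difference in share was -2.63 to 0.228 percentage points for Fbp1, -0.039 to 0.21 for Pck1 and -3.44 to 1.12 for G6pc. The lowest adjusted p of any of the 6 under any alternative was 0.521, for Pck1 with DESeq2 on 8 libraries. Of the 15 pairs, 10 passed, 7 by Spearman's rho, 9 without centring, 3 with the ileal level removed, also added later, and 7 to 10 without 1 mouse, lowest without Vil-Cre mouse 5. Equal replicate numbers did not pair the mice (r of same-numbered deviations -0.12 to 0.14), and with the number as a replicate block 1 gene over all, 0 of 6 members and 10 pairs passed, with exact p-values for the shares of 0.75 to 1. Depth limited none of the 6 genes, since the lowest value was 213 normalized counts.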
